A study of Homo sapiens with 4 samples.

Results

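The 4 inhibitor of DNA binding genes (ID1, ID2, ID3 and ID4) and 6 genes that hold back SMAD signalling (SMAD6, SMAD7, BAMBI, SKI, SKIL and SMURF1) were followed in SK-N-BE(2), an established MYCN-amplified human neuroblastoma line, after knockdown of the RNA-binding protein IGF2BP3. These 10 genes were taken by symbol from a deposited table of 64252 genes, and all 10 had counts high enough to be tested. The 2 shIGF2BP3 libraries came from SK-N-BE(2) cells transfected with a hairpin RNA against IGF2BP3, and the 2 shControl libraries from cells of that line transfected with a control hairpin (called shNC in the count table). No source used here gives the hairpin's target site, the time after transfection or any selection or cloning of cells. Nothing in the labels says whether the libraries of a group are separate cultures. The p-values therefore set group differences only against the scatter of these libraries, pooled in part across genes, and that scatter may be technical.

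Bone morphogenetic proteins (BMPs) and transforming growth factor beta (TGF-beta) bind paired type I and type II receptor kinases, which phosphorylate receptor SMADs that enter the nucleus with SMAD4. The ID genes are classic direct targets of BMP-activated SMADs. Their proteins carry a helix-loop-helix without a DNA-binding region, so they pair with E proteins and keep those from forming DNA-binding dimers with tissue-restricted partners such as HAND2, and in sympathetic neuroblasts that balance bears on neuronal differentiation. SMAD6, SMAD7 and BAMBI are themselves switched on by the pathway and damp it, which makes them a feedback circuit. SKI and SKIL (also called SnoN) are corepressors on SMAD complexes, and SMURF1 is a ubiquitin ligase for SMADs and receptors.

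Total counts per library lay between 26755695 and 31946756. IGF2BP3 stood at 28.7 and 31.9 CPM (counts relative to the TMM-scaled library size) in shIGF2BP3 and at 156.5 and 138.9 CPM in shControl, so the targeted transcript was lower in both libraries labelled as knockdown. All 8 adrenergic neuroblastoma markers listed were detected and tested, of which 6 fell, DBH rose and PHOX2A did not pass the test. Over all tested genes 25.6% fell and 25.9% rose. The falls of the markers ran from -0.22 (MYCN) to -1.23 (HAND2) on the log2 scale, and DBH stood at 1.67. In a bulk sample, fewer cells of a type and less RNA per cell cannot be told apart.

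Promoters of the 4 ID genes, SMAD6 and BAMBI are shown first, because BMP and TGF-beta SMADs act on such DNA, and that of SMAD7 is not printed. Sequences are those of RefSeq on GRCh38.p14, in windows of 300 bases from 250 before to 50 after each start site, and 9 of the 10 genes matched an entry. For the 4 ID genes, the 100 bases just before the RefSeq start site are given 5′ to 3′. They lie at chr20:31605189-31605288 (plus strand), chr2:8681956-8682055 (plus), chr1:23559502-23559601 (minus) and chr6:19837270-19837369 (plus). GENCODE draws some of these genes from earlier starts, so the ID2 and ID3 stretches lie wholly inside its gene spans. The last bases of the ID1 stretch do too. Capitals mark the letters TATAA on the sense strand between 45 and 20 bases before the start, an element that places transcription initiation.
ID1: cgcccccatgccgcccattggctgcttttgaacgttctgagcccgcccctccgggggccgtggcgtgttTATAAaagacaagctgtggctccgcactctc
ID2: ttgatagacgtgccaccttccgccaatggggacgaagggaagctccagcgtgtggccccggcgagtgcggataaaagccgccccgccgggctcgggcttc
ID3: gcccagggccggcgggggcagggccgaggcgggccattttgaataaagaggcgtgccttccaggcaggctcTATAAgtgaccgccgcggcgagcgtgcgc
ID4: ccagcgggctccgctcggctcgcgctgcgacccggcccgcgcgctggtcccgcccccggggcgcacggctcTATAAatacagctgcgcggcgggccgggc

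ID1, ID3 and ID4 held TATAA at that place, as did 1 of the SMAD7 windows, against 4.09% of 35116 windows of the same length. ID2 did not hold those letters there.

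For SMAD6 the same 100 bases (chr15:66702136-66702235, plus strand) are shown with the palindrome GTCTAGAC in capitals, the textbook SMAD-binding element. For BAMBI, bases 230 to 131 before the RefSeq start are shown (chr10:28677291-28677390, plus strand). Capitals there mark GGCGCC, a GC-rich element that SMADs also bind, and GTCTG on either strand. The later part of this BAMBI stretch, with its last GTCTG, lies inside the gene as GENCODE draws it.
SMAD6: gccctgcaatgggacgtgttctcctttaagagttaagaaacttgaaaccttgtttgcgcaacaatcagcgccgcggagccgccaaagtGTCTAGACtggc
BAMBI: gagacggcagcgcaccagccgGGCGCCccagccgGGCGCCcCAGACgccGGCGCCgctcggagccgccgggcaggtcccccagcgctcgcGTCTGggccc

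The palindrome began 12 bases before the RefSeq start of SMAD6 and was found in 0.202% of all windows and in none of the other members' windows. Its end overlaps the first bases of SMAD6 as GENCODE draws the gene. BAMBI had 3 GGCGCC sites, as did 0.871% of windows, while at least 1 such site was in 19.2% of windows (BAMBI and SKIL among the members). GTCTG, searched on both strands and contained in no other motif here, was in 45.3% of windows. It was in at least 1 window of 6 of the 9 matched members, and a gene can have several windows. GGCGCC or GGAGCC followed after 5 bases by GTCT, the arrangement known from BMP response elements, was in 0.103% and 0.142% of windows and in those of 0 members, and the E-box CACGTG in 7.26% and 0. A match is a description of these letters, and enhancers further upstream lie outside the windows.

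All 4 ID genes were higher after knockdown of IGF2BP3, by 1.59 to 2.30 on the log2 scale, and so were SMAD6, SMAD7 and BAMBI, while SKI, SKIL and SMURF1 did not pass the test. Thus 7 of 10 genes rose and 0 fell by the quasi-likelihood test of edgeR, with p-values adjusted over all tested genes (Benjamini-Hochberg). At an unadjusted p under 0.05 the count of lower members was also 0, as it was by DESeq2 and by limma voom. Of all 19767 tested genes 51.5% passed, 25.9% higher and 25.6% lower. Scaled by library size alone, 5739 were higher and 4405 lower, against 5120 and 5058. The members' median log2 fold change was 1.44, against 0.01 over all tested genes. The groups did not overlap in 9 of the 10 genes, against 74.5% of tested genes. The members were chosen with earlier results of these data known, so these contrasts are descriptions.

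**Figure D1:**
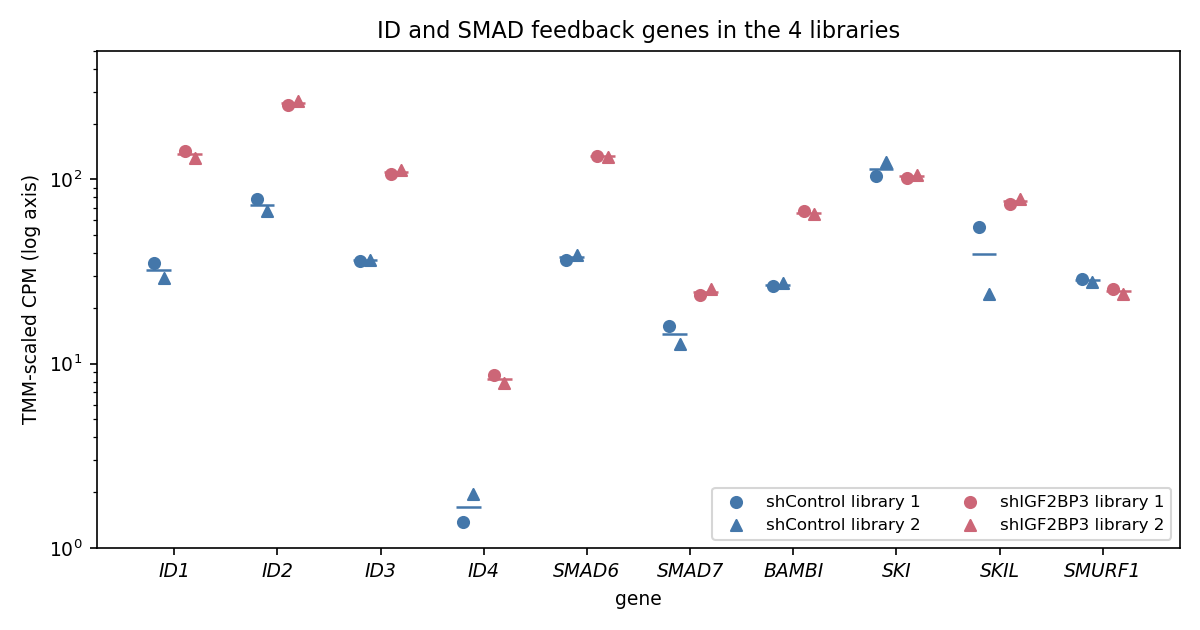
Level of each gene in every library, in TMM-scaled CPM on a log axis, with circles and triangles for libraries 1 and 2, blue for shControl and red for shIGF2BP3, and a line at each group mean. Both red points lie above both blue points for the 4 ID genes, SMAD6, SMAD7, BAMBI and SKIL, and the 2 shControl points of SKIL stand apart at 55.1 and 23.99 CPM.

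ID2, the family member most studied in neuroblastoma because its protein was reported to be a MYC-family target that binds RB, lies on the plus strand of chromosome 2 from 8678845 to 8684453 (ENSG00000115738, GENCODE release 29 on GRCh38). It was measured at 254.7 and 267.0 CPM in shIGF2BP3 and at 78.4 and 67.6 CPM in shControl. Both knockdown libraries lay far above both controls. The log2 fold change was 1.84 (SE 0.08, adjusted p = 3.32e-12), or 3.58-fold. An antisense gene, ID2-AS1, shares 38 exon bases with ID2 and had between 15 and 26 counts per library, against 2112 to 7326 for ID2. The copy ID2B had 0, 0, 0 and 1 counts.

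ID1, the founding member of the family, lies on the plus strand of chromosome 20 from 31605283 to 31606515 (ENSG00000125968). It rose from 35.1 and 29.3 CPM in shControl to 142.2 and 131.1 CPM in shIGF2BP3. This was a change of 2.09 on the log2 scale (SE 0.09, adjusted p = 5.92e-12), and 3.12% of tested genes had a higher fold change. ID3, which is often co-expressed with ID1 in development, maps to chromosome 1, 23557918 to 23559794, minus strand (ENSG00000117318). It rose from 36.3 and 36.6 to 106.6 and 112.2 CPM, by 1.59 on the log2 scale (SE 0.08, adjusted p = 4.41e-11). The 2 libraries of each group differed from each other by at most 1.199-fold for ID1 and 1.05-fold for ID3.

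ID4, an ID protein of neural progenitors, lies on the plus strand of chromosome 6 from 19837386 to 19840684 (ENSG00000172201). It was the scarcest of the 4, with counts of 246 and 216 after knockdown and of 37 and 61 in the controls, or 8.68 and 7.87 against 1.37 and 1.95 CPM. Its log2 fold change of 2.30 had the widest error of the 4 (SE 0.27, adjusted p = 1.23e-06). Whether the fold changes of the 4 ID genes differ from each other was not tested.

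**Figure D2:**
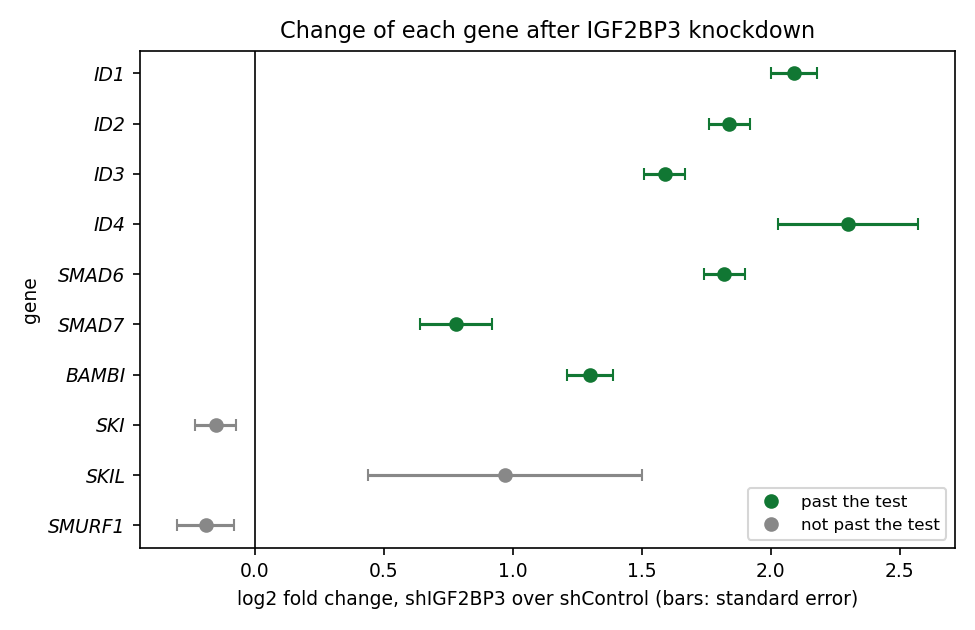
Log2 fold change of each gene, shIGF2BP3 over shControl, as a point with its standard error from the fit over 4 libraries. Genes past the test are green and lie between 0.78 (SMAD7) and 2.30 (ID4), and the 3 grey genes did not pass, with SKIL carrying the widest error (0.53).

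Levels of different genes can be compared only per length, here as CPM per kilobase of annotated exon. On that scale ID2 stood at 35.6 and 30.6 in shControl and at 115.5 and 121.1 in shIGF2BP3. ID1 stood at 28.5 and 23.7 in shControl and at 115.4 and 106.3 in shIGF2BP3. ID3 stood at 20.2 and 20.4 in shControl and 59.3 and 62.4 in shIGF2BP3, and ID4 at 0.586 and 0.831 against 3.70 and 3.36. The order ID2, ID1, ID3, ID4 thus held within each library, though ID1 and ID2 in shIGF2BP3 replicate 1 were nearly level. With the longest transcript as length, ID3 stood above ID1 in the shControl mean, so that part of the order depends on the length.

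Summed over the 4 genes, the ID level was 84.8 and 75.6 CPM per kilobase in shControl and 293.9 and 293.2 in shIGF2BP3, a ratio of means of 3.66. ID2 made up 41.9% and 40.6% of the sum in shControl and 39.3% and 41.3% in shIGF2BP3, so its share overlapped between the groups. ID1 went from 33.6% and 31.4% to 39.3% and 36.3%, and ID3 from 23.8% and 26.9% to 20.2% and 21.3%. With 2 libraries a group, an exact two-sided permutation test cannot give a p below 0.333, so the shares carry no test.

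Among the other members per kilobase, SKI had the highest level in shControl (17.2 and 20.5), and its 2 libraries lay on either side of those of ID3. BAMBI came next at 11.4 and 11.8. SMURF1 (4.598 and 4.42), SMAD6 (4.29 and 4.54) and SKIL (7.09 and 3.08) did not separate, and SMAD7 was lower at 3.20 and 2.53, where it met the lower SKIL library. In shIGF2BP3 the order was BAMBI (29 and 28.2), SKI (16.8 and 17.4), SMAD6 (15.7 and 15.4), SKIL (9.47 and 10.1), SMAD7 (4.69 and 5.06) and SMURF1 (4.08 and 3.82), with no overlap between neighbours. These orders rest on the annotated exon lengths. On this scale SMAD6 stood level with SMURF1 in the control cells. It was 3.36-fold and 3.04-fold above SMAD7 in the knockdown libraries, against 1.34-fold and 1.79-fold in the controls.

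SMAD6, the inhibitory SMAD that acts mainly on BMP receptors and SMAD1, SMAD5 and SMAD9, lies on the plus strand of chromosome 15 from 66702228 to 66782848 (ENSG00000137834). It was measured at 134.7 and 131.9 CPM in shIGF2BP3 and at 36.7 and 38.9 CPM in shControl. Replicates were close, at 1.02-fold and 1.06-fold, and the groups were far apart. The log2 fold change was 1.82 (SE 0.08, adjusted p = 5.9e-12).

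SMAD7, the inhibitory SMAD that also blocks TGF-beta and activin receptors and recruits SMURF ligases, maps to chromosome 18, 48919853 to 48952052, minus strand (ENSG00000101665). It was measured at 23.6 and 25.5 CPM in shIGF2BP3 and at 16.1 and 12.7 CPM in shControl. Every knockdown library was above every control library. Its rise of 0.78 on the log2 scale (SE 0.14, adjusted p = 0.000153), or 1.71-fold, was the smallest among the 7 genes that passed. The difference from the rise of SMAD6 was not tested.

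BAMBI, a receptor-like protein without a kinase that sits in receptor complexes and silences them, lies on the plus strand of chromosome 10 from 28677342 to 28682939 (ENSG00000095739). It rose from 26.4 and 27.3 CPM to 67.1 and 65.1 CPM, a log2 fold change of 1.30 (SE 0.09, adjusted p = 2.73e-09). Libraries of a group differed by at most 1.04-fold. The 3 feedback genes that rose thus include a blocker at the receptor (BAMBI) and both inhibitory SMADs.

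SKI and SKIL recruit repressor complexes to SMADs at target genes, and SKIL is itself a TGF-beta target. SKI (ENSG00000157933, chromosome 1, 2228695 to 2310119, plus strand) stood at 102.0 and 105.6 CPM in shIGF2BP3 and 104.7 and 124.6 CPM in shControl. The groups overlapped, with a log2 fold change of -0.15 (SE 0.08, adjusted p = 0.163). Without shControl replicate 1 SKI stood at -0.27 with an adjusted p of 0.0132, past the test as a lower gene, and without shControl replicate 2 at -0.03.

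SKIL (ENSG00000136603, chromosome 3, 170357678 to 170396835, plus strand) stood at 73.7 and 78.6 CPM in shIGF2BP3 and at 55.1 and 23.99 CPM in shControl. The groups did not overlap, but the 2 control libraries differed by 2.30-fold. Of 9082 genes with a mean of at least 500 counts in shControl, 8 differed more between those libraries, and the median difference was 0.09 on the log2 scale. The log2 fold change was 0.97 (SE 0.53, adjusted p = 0.282). It was 1.66 without shControl replicate 1 (adjusted p = 6.41e-26) and 0.45 without shControl replicate 2 (adjusted p = 0.000227). It passed in both of those fits, where a single control library leaves that spread unseen, and also without edgeR's robust option (0.97, adjusted p = 0.00219).

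SMURF1 (ENSG00000198742, chromosome 7, 99027438 to 99144100, minus strand) stood at 25.6 and 23.9 CPM in shIGF2BP3 and 28.9 and 27.7 CPM in shControl. Both knockdown libraries were below both controls, but the log2 fold change of -0.19 (SE 0.11, adjusted p = 0.175) did not pass. SMURF1 shares 735 exon bases with TRRAP on the opposite strand, which had 3095 to 4238 counts per library, and the strand setting of the counting is stated in no source used here.

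**Figure D3:**
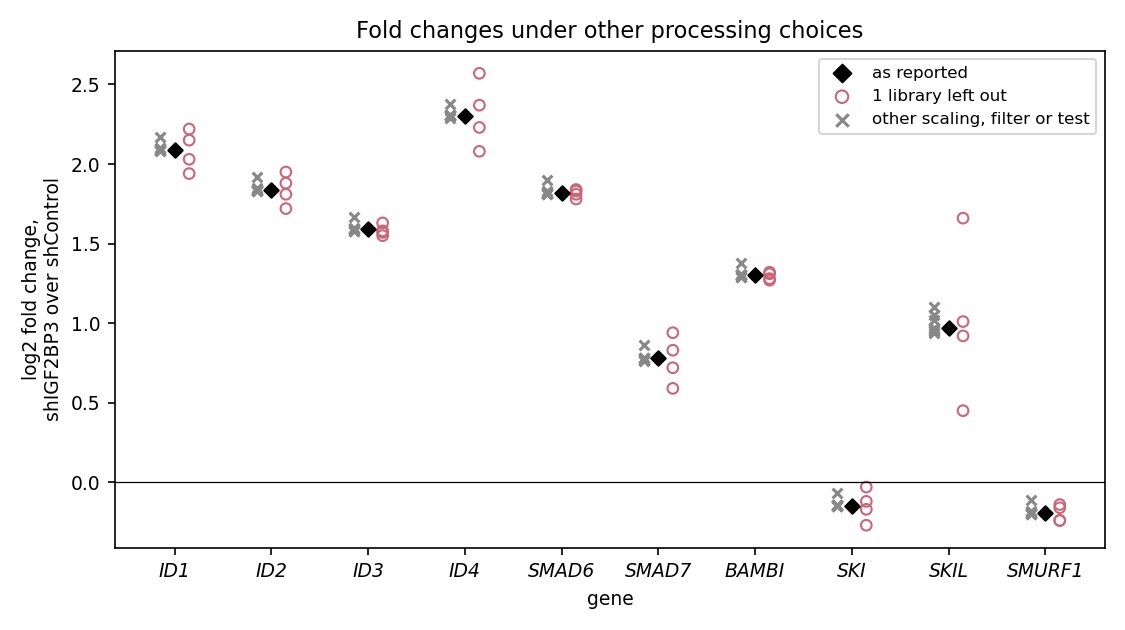
Log2 fold change of each gene as reported (black diamond), with 1 library left out (open red circles) and under another scaling, filter or test (grey crosses). The 7 genes that rose stay above 0.5 throughout, whereas SKIL spreads from 0.45 to 1.66.

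The rest of the pathway was read from 8 lists sorted by role, with 117 entries, also chosen with earlier results of these data known. Together they had 30 higher and 30 lower genes among 96 tested, a median log2 fold change of 0.04. That is 31.2% of the tested genes of the lists in each direction, against 25.9% higher and 25.6% lower over all tested genes. By list, the higher and lower shares were 18.8% and 18.8% for ligands and 26.7% and 26.7% for receptors. They were 16.7% and 33.3% for SMAD transducers and 33.3% and 16.7% for secreted antagonists. Other intracellular regulators had 33.3% and 44.4%, and other SMAD targets 62.5% and 12.5%. Basic helix-loop-helix genes had 20% and 70%, and pocket proteins of the RB family 0% and 66.7%.

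Of 25 ligands listed, 16 were tested, 3 were higher, 3 lower and 10 not past the test (median 0.32). Each direction held 18.8% of those tested, below the 25.9% and 25.6% over all tested genes. TGFB3 rose from 4.98 and 4.79 to 16.8 and 14.9 CPM (log2 1.70, SE 0.18), and TGFB1 rose from 7.24 and 9.01 to 14.3 and 13.0 CPM (log2 0.74). MSTN, a muscle growth inhibitor, rose by 2.80 from 1 and 10 counts to 40 and 35 (2.06 without shControl replicate 1 and 5.0 without shControl replicate 2). BMP4, an activator of ID genes in many tissues, fell from 31 and 37 counts to 14 and 5 (log2 -1.76, adjusted p = 0.0183). TGFB2 fell by 1.40 (adjusted p = 0.0203) and GDF11 by 0.26 (adjusted p = 0.0127). BMP2 had 4 counts in 1 control library and 0 in the others and was not tested, and BMP7 stood at 15.4 and 13.7 against 11.8 and 11.5 CPM (log2 0.32, adjusted p = 0.0917; adjusted p = 0.039 when scaled by library size alone).

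The calls of the 3 ligands that fell ended when single libraries were left out. BMP4 was at -2.65 without shIGF2BP3 replicate 1, where the call held, at -1.23 (adjusted p = 0.171) without shIGF2BP3 replicate 2 and -1.76 (0.0619) without shControl replicate 2. TGFB2 was at -1.14 (adjusted p = 0.143) without shIGF2BP3 replicate 1 and -1.18 (0.145) without shControl replicate 2. GDF11 was at -0.24 (adjusted p = 0.0738) without shIGF2BP3 replicate 1 and -0.23 (0.061) without shControl replicate 1. Without shIGF2BP3 replicate 1, and by DESeq2, 1 ligand was lower in place of 3.

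Of 16 receptors and coreceptors, 15 were tested, 4 rose, 4 fell and 7 did not pass, and the median was -0.11. Each direction held 26.7% of those tested, near the 25.9% and 25.6% over all tested genes. With no low-count filter 3 were higher and 2 lower. ACVR1 (ALK2), a type I receptor that phosphorylates the BMP SMADs, rose from 40.8 and 43.0 to 122.1 and 123.8 CPM. Both knockdown libraries lay far above both controls, with a log2 fold change of 1.55 (SE 0.08, adjusted p = 3.62e-11). BMPR1B, another BMP type I receptor, fell from 143.4 and 143.2 to 104.3 and 103.5 CPM (log2 -0.46), and RGMB, a BMP coreceptor, fell from 53.4 and 48.4 to 22.8 and 20.6 CPM (log2 -1.22). The activin type I receptor ACVR1B rose by 0.54.

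BMPR1A stood at 88.1 and 100.4 against 95.0 and 84.7 CPM and TGFBR1 at 57.4 and 61.7 against 66.7 and 62.3 CPM, neither past the test. TGFBR2, the type II receptor that TGF-beta itself needs, was low, at 4.59 and 4.74 against 4.79 and 4.22 CPM. BMPR2 rose by 0.23 (adjusted p = 0.0122), a call that ended without shIGF2BP3 replicate 2 (0.14, adjusted p = 0.217). Without shIGF2BP3 replicate 1, 2 receptors were lower in place of 4.

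Of the 6 SMAD transducers 1 rose, 2 fell and 3 did not pass. SMAD9 (SMAD8), a BMP-type receptor SMAD, rose from 200.7 and 201.3 to 344.6 and 345.6 CPM (log2 0.78, SE 0.06, adjusted p = 1.05e-08). SMAD5, another BMP-type SMAD, fell from 135.7 and 131.0 to 77.9 and 86.8 CPM (log2 -0.69, SE 0.08), and SMAD3, which carries TGF-beta signals, fell from 84.8 and 82.7 to 44.8 and 42.7 CPM (log2 -0.94, SE 0.08). SMAD1 and the shared partner SMAD4 stood at -0.03 and 0.03. RNA levels do not show which SMADs were phosphorylated.

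Of 17 secreted antagonists 12 were tested: 4 were higher, 2 lower and 6 not past the test (median 0.57, also with FST at its bound). FST (follistatin), which traps activins, had counts of 37 and 56 after knockdown and of 0 in both controls. With 3 counts taken as the floor in each control library, it was at least 15.02-fold higher. FSTL1 rose by 0.64 and FSTL3 by 1.13 on the log2 scale. TWSG1, a BMP-binding partner of chordin, fell from 21.9 and 19.2 to 4.38 and 7.80 CPM (log2 -1.76, SE 0.20). The count of lower antagonists was 1 with library size alone and with no low-count filter, and 3 by DESeq2. Without shIGF2BP3 replicate 2, and without shControl replicate 1, 1 antagonist was lower in place of 2.

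Of 18 other intracellular regulators 6 rose, 8 fell and 4 did not pass. PMEPA1, a TGF-beta-induced protein that sequesters receptor SMADs, rose from 31.1 and 32.7 to 73.6 and 67.3 CPM (log2 1.14, SE 0.09), a feedback gene outside the 10. FKBP1A (FKBP12), which holds type I receptors inactive, fell from 151.4 and 141.8 to 54.9 and 53.9 CPM (log2 -1.43, SE 0.08). TGIF2, a SMAD corepressor, went from 67.2 and 68.8 to 22.5 and 25.6 CPM, 2.83-fold lower, and the phosphatase CTDSP2 fell by 0.85 on the log2 scale. SMURF2, the paralog of SMURF1 (named after its values were seen), rose by 0.32 (adjusted p = 0.0154), from 35.7 and 33.2 to 39.9 and 46.2 CPM. Its adjusted p was the largest among the 6 higher regulators. By DESeq2, and with no low-count filter, 5 regulators were higher.

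Of 16 other genes known as SMAD targets, all tested, 10 rose, 2 fell and 4 did not pass (median log2 fold change 0.95). The matrix genes FN1 and COL1A1 rose by 1.69 and 1.77, and TGFBI by 2.09. Among BMP-type targets, named after their values were seen, ATOH8 rose from 14.7 and 18.6 to 53.7 and 52.4 CPM (log2 1.67, SE 0.12) and MSX2 rose by 0.67. DLX5 fell from 10.6 and 12.3 to 1.59 and 3.57 CPM (log2 -2.16). The count of lower targets was 1 by DESeq2 and by limma voom, and with library size alone, no low-count filter or no robust option. Without either shIGF2BP3 replicate or without shControl replicate 1, 1 target was lower in place of 2.

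Several of these genes, the ID genes included, are also expressed in other cell types, whose markers were read beside them. Of 5 endothelial markers PECAM1 and KDR were at 0 in every library, and the summed level was 2.73 to 3.21 CPM in shIGF2BP3 and 1.63 to 3.80 in shControl. Of 6 fibroblast markers, COL1A1 included, 3 rose and 1 fell, with a summed level of 534.8 to 550.8 against 402.9 to 413.0 CPM, and none was at 0 in every library. Of 6 Schwann and glial markers SOX10 was at 0 in every library, 2 rose and 1 fell, and the sum of 73.1 to 81.9 against 15.6 to 15.8 CPM was mostly NGFR (72.7 and 64.0 against 10.4 and 10.1 CPM). Over all tested genes 25.9% rose and 25.6% fell. The part of other cell types in the result was not tested.

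**Figure D4:**
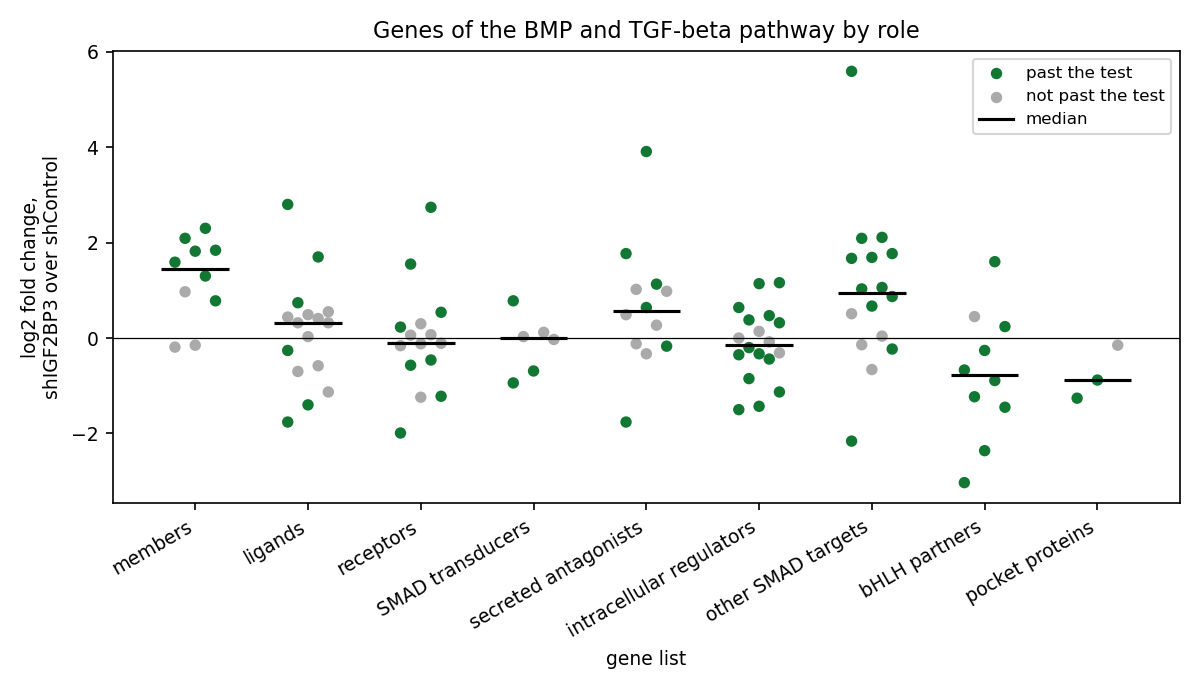
Log2 fold change of every tested gene by list, green where past the test, with the median as a black line, and FST drawn at its lower bound. The members (median 1.44) and other SMAD targets (0.95) lie mostly above 0, while helix-loop-helix partners (-0.78) and pocket proteins (-0.88) lie mostly below.

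Partners of ID proteins were read from a list of 16 basic helix-loop-helix (bHLH) genes. Of these 10 were tested: 7 fell, 2 rose and 1 did not pass (median -0.78). All 3 E protein genes fell. TCF3 (E2A) went from 272.1 and 292.9 to 107.2 and 100.3 CPM, a log2 fold change of -1.45 (SE 0.07, adjusted p = 1.86e-11). TCF4 (E2-2) went from 500.2 and 508.4 to 260.8 and 284.0 CPM (log2 -0.89), and TCF12 (HEB) from 347.9 and 328.4 to 279.8 and 285.6 CPM (log2 -0.26, adjusted p = 0.00237).

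HAND2, a sympathetic lineage factor that acts as a dimer with E proteins, fell from 846.1 and 861.5 to 375.8 and 351.1 CPM (log2 -1.23, SE 0.06). Not every partner fell: HAND1 and NHLH1, named after their values were seen, rose by 0.24 and 1.60.

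Per kilobase of exon, the 3 E protein genes summed to 99.6 and 101.2 in shControl and to 56.6 and 56.9 in shIGF2BP3, a ratio of means of 1.77. The ratio of summed ID to summed E protein transcripts was 0.852 and 0.747 in the controls and 5.19 and 5.15 after knockdown, a quantity chosen after these values were seen. With the longest transcript as the length of each gene the group means were 0.511 and 3.21. These are RNA ratios, and protein was not measured.

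**Figure D5:**
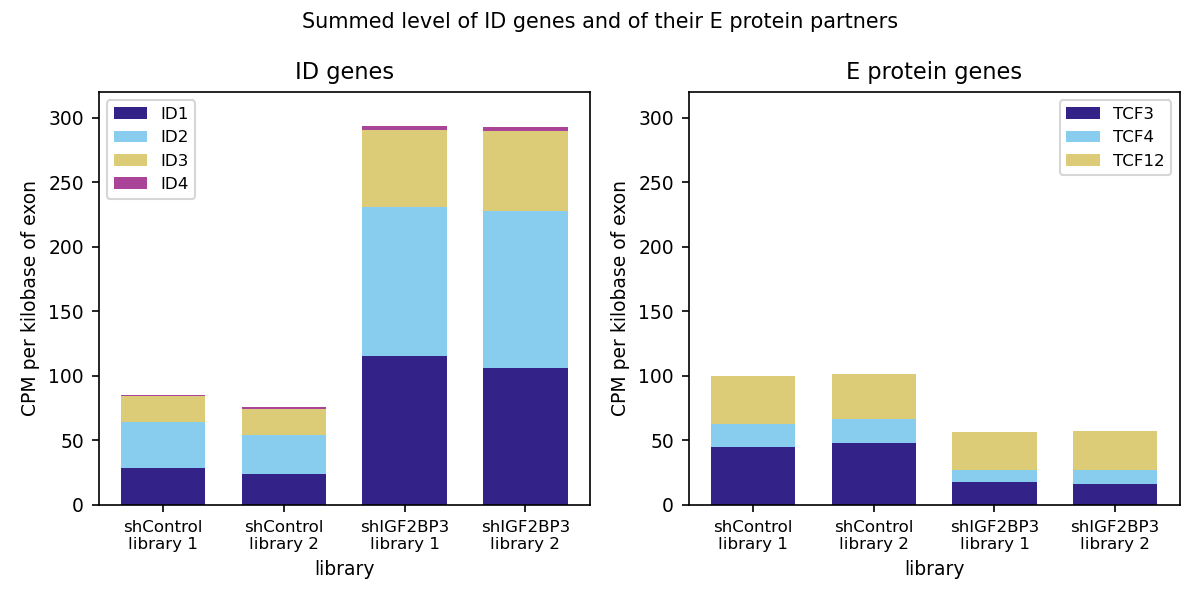
Stacked levels of the 4 ID genes (left) and of the 3 E protein genes (right) in each library, in CPM per kilobase of exon from 0. The ID stacks reach 293.9 and 293.2 in shIGF2BP3 against 84.8 and 75.6 in shControl, and the E protein stacks 56.6 and 56.9 against 99.6 and 101.2.

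Pocket proteins, the RB family that ID2 protein is known to bind, were measured too. Of 3 genes 0 were higher, 2 lower and 1 not past the test by edgeR, with 0 higher at an unadjusted p under 0.05 and by DESeq2 and limma voom. RBL2 (p130) fell from 96.5 and 85.4 to 36.9 and 38.8 CPM (log2 -1.26), and RBL1 (p107) from 35.7 and 29.9 to 17.1 and 18.3 CPM (log2 -0.88). RB1 stood at 64.9 and 71.2 against 76.3 and 75.1 CPM (log2 -0.15, adjusted p = 0.134).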

How the data were processed

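The authors deposited whole-number counts per Ensembl gene for 4 libraries. HISAT2 2.2.0, StringTie and hg38 are named, without role, in the submitters' processing notes, but no source used here states the annotation, strand setting or counting rule, so reads of overlapping genes may be split either way. StringTie can give counts estimated from coverage, and whether these are such estimates or reads counted directly is not stated. RNA came by TRIzol and a TruSeq kit, per the labels' protocols. Symbols came from a names table (56105 genes) or GENCODE release 29 (486), and 7661 genes had none.

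Counts were filtered (filterByExpr, minimum count 10), TMM-scaled and tested with edgeR 4.0.16 in R 4.3.3 (glmQLFit, robust, non-legacy), with Benjamini-Hochberg adjustment over 19767 genes (called below 0.05), leaving 2 residual degrees of freedom. Each gene's spread was combined with that of other genes, at a median of 15.06 prior degrees of freedom. SE is the size of the log2 fold change divided by the square root of F. Lengths are unions of GENCODE exons. A count of 0 allows up to 3 counts, 0.0958 to 0.111 CPM, for counting error only. Alternatives included DESeq2 1.42.0 and limma 3.58.1. On simulated data for this comparison over 19254 genes, the test recovered 20 of 67 at a true fold of 1.5, 60 of 67 at 2 and 66 of 66 at 4, with 7 false calls. The simulation gave every gene the same spread (coefficient of variation 12.6%) and changed few genes, none of low count. These figures are therefore not error rates for the real libraries.

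Members and lists were chosen with earlier results of these data known. The text names every member, IGF2BP3, up to 4 called genes of each list by smallest p (all in lists with at most 5 called) and 20 partners picked by role. Others are marked as named after their values were seen. Some genes that this rule names are not reported here.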

Additional observations from a re-analysis of the deposited data

How the results depend on the processing

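The 7 ID and feedback genes that rose (ID1, ID2, ID3, ID4, SMAD6, SMAD7 and BAMBI) kept their direction and their call under all 12 alternatives run for each, of which the older edgeR fit was added after seeing the data, as were the other settings of the ID to E protein ratio. The count of members past the test ran from 7 to 9 without single libraries, with 0 to 1 lower, where the lower one was SKI without shControl replicate 1. All genes past the test numbered 8800 to 9442 without single libraries, 8539 with DESeq2 and 8757 without a low-count filter. The replicate block gave 8 members and 10509 genes, and SKIL then passed (1.02, adjusted p = 2.24e-21, edgeR). The replicate numbers were not taken as pairs, because deviations from the group means correlated at only 0.0208 between like-numbered libraries. The cause of these shifts was not tested.

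Log2 fold changes near 0 changed sign when single libraries were left out: BMPR1A ran from -0.03 to 0.17 (-0.02 without shIGF2BP3 replicate 2), TGFBR2 from -0.06 to 0.14, and SMAD1 from -0.12 to 0.04 (0.03 without shIGF2BP3 replicate 1). SMAD1 stood at 0.05 when scaled by library size alone. Shares of the ID sum move with length by construction. With the longest transcript ID1, ID2, ID3 and ID4 took 33.6%, 38.8%, 26.5% and 1.07% in shIGF2BP3, and ID1, ID2 and ID3 took 28.4%, 39.0% and 31.85% in shControl. ID3 thus stood above ID1 in shControl at that length. With no length scaling ID1, ID2 and ID4 took 26.5%, 50.6% and 1.61% in shIGF2BP3, and ID1 and ID2 took 22.4% and 50.9% in shControl. The ratio of summed ID to summed E protein transcripts was then 0.782 in shIGF2BP3 and 0.127 in shControl.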
